A study of Homo sapiens with 6 samples.

Results

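The 10 genes described here are AXIN2, LGR5, ASCL2, NKD1, RNF43, ZNRF3, MYC, TCF7, LEF1 and SP5, a panel of Wnt and β-catenin target genes chosen by name. The panel and the pathway lists below were chosen with earlier results of these data known. Each symbol matched 1 of the 62492 genes in the deposited tables through its Ensembl identifier, so all 10 were found. They were measured by RNA-seq of polyA RNA from HCT116, a cell line of human colorectal carcinoma. The cells received a control siRNA (siControl) or an siRNA against NONO (siNONO). Both siRNAs were given at 20 nM, and each group had 3 libraries, labelled Set 1 to Set 3, with 1 library of each group per Set. The sources used here do not say whether the Sets were separate cultures. The main fit compared the groups within Sets, so its p-values measure how that difference varied between Sets. This spread may be technical. NONO is an RNA- and DNA-binding protein of paraspeckles, and its knockdown rested on 1 siNONO duplex, so in these libraries an effect of losing NONO and an effect of the duplex itself cannot be told apart. In bulk RNA, a change in the number of cells that express a gene and a change in RNA per cell cannot be told apart. The time between transfection and harvest is not given in the sources used here. The estimated counts summed to 32659002, 27491389 and 21765393 in siControl Sets 1, 2 and 3 and to 28715263, 28260060 and 27946591 in siNONO.

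In canonical Wnt signalling, secreted WNT proteins bind Frizzled receptors with LRP5 or LRP6 and halt a cytoplasmic destruction complex built on APC, AXIN proteins and the kinase GSK3. β-catenin, the product of CTNNB1, then escapes degradation, enters the nucleus and activates genes bound by TCF/LEF factors. In the intestinal crypt this program maintains stem cells, and in most colorectal cancers it is switched on by mutation. HCT116 cells carry an activating mutation of CTNNB1 and an intact APC gene. Several of the 10 targets are brakes that the pathway raises against itself (AXIN2, NKD1, RNF43, ZNRF3), some are stem-cell genes (LGR5, ASCL2), and others are transcription factors (MYC, TCF7, LEF1, SP5).

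SP5 is shown at the sequence level because, of the panel, it was the gene whose promoter window held the letters bound by TCF/LEF factors. RefSeq promoter windows on GRCh38.p14, from 250 bases before to 50 bases after the start site, were at hand for SP5, LEF1, TCF7 and RNF43. AXIN2, LGR5, ASCL2, NKD1, ZNRF3 and MYC had no entry. The letters searched, on both strands, were CTTTGAA and its relative CTTTGAT, together with the form CTTTGTA and the form CTTTGTT. SP5 held 3 matches and the other 3 windows held 0, while 13.8% of 35116 windows of the same length held at least 1. Each run below reads 5′ to 3′ on the strand of the match, with the match in capitals and 11 bases on either side.
SP5 match on the plus strand, chr2:170715217-170715245: gagccgctattCTTTGATgattgggtagc
SP5 match on the minus strand, chr2:170715242-170715270: aagatttatggCTTTGAAgtttgccgcta
SP5 match on the minus strand, chr2:170715178-170715206: gaaagcaaatcCTTTGAAtccacaaagct
The matched letters began 109, 84 and 148 bases before the start site in the order shown, counted along the gene. A match describes the letters only, and binding was not measured in these libraries.

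The knockdown was examined first. NONO was at 496, 495 and 516 CPM (counts scaled to library size and by TMM factors) in siControl Sets 1, 2 and 3 and at 89.5, 95.5 and 100.4 CPM in siNONO. Every siNONO library lay far below every siControl library, and NONO fell by 2.40 on the log2 scale (standard error 0.0337, Benjamini-Hochberg adjusted p = 2.47e-13 in edgeR's quasi-likelihood test). The libraries were epithelial by their markers. The 6 epithelial markers (EPCAM, CDH1, KRT8, KRT18, KRT19 and VIL1) summed to between 2711 and 3007 TPM (a level scaled to transcript length and to a fixed total per library), led by KRT8, with VIL1 at no more than 0.17 TPM. Of 3 endothelial markers listed, the 2 that were matched (CDH5 and VWF) summed to at most 0.34 TPM, and the other was not analysed here. The 5 fibroblast markers summed to between 16.4 and 19.3 TPM, nearly all of it COL1A1, with COL1A2 at 0 counts in every library.

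The panel covered a wide range of levels in HCT116 cells. Per length, MYC stood highest, at 177 ± 12.5 TPM (SD, n = 3) in siControl, ahead of RNF43 at 60.2 ± 4.33 TPM, AXIN2 at 32.0 ± 2.07 TPM, TCF7 at 20.2 ± 0.852 TPM and ZNRF3 at 10.96 ± 0.831 TPM (SD, n = 3 each). NKD1 followed at 2.99 ± 0.251 TPM and SP5 at 1.66 ± 0.273 TPM (SD, n = 3 each). Neighbours in this order did not overlap between libraries from MYC down to LGR5, in siControl and in siNONO alike, and the order of these genes was the same in both groups. Length separates NKD1 from its read numbers. Its mean transcript length was between 15486 and 16631 bases, so it had about the same CPM as TCF7 in siControl but a far lower TPM.

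LGR5, ASCL2 and LEF1 were close to absent. LGR5, the R-spondin receptor that marks crypt stem cells, held 8 counts over siControl (3, 4 and 1 by Set) and 5 over siNONO (1, 2 and 2). ASCL2, a basic helix-loop-helix factor of intestinal stem cells, was at 0 counts in every siControl library and at 0, 1 and 1 in siNONO. LEF1, a TCF/LEF family factor, was seen with 3 counts in siControl Set 1 and with 0 in the other 5 libraries. At this depth a count of 0 allows up to 3 counts, which is between 0.0919 and 0.138 CPM depending on the library and covers counting error only. With levels at or near this limit in both groups, no difference was detectable, and the 3 genes did not enter the test.

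The other 7 genes were tested in the fit over 17000 genes with enough counts. In siNONO, 3 of the 7 were higher (NKD1, TCF7 and RNF43), 0 were lower, and AXIN2, ZNRF3, MYC and SP5 did not pass an adjusted p of 0.05. Changes were common in these libraries, with 46.6% of all genes tested called in either direction (23.2% of all genes tested were higher and 23.4% lower), so a call on 3 of 7 genes is close to the background. The median log2 fold change of the 7 was 0.08, against 0.00 over all genes tested. On log2(TPM + 1) with limma, 1 of the 7, NKD1, was called. Over all 17000 genes tested, 4206 were called in that fit, against 7924 with edgeR. The split over all genes shifted from 49.7% of the calls higher to 29.8% higher.

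**Figure D1:**
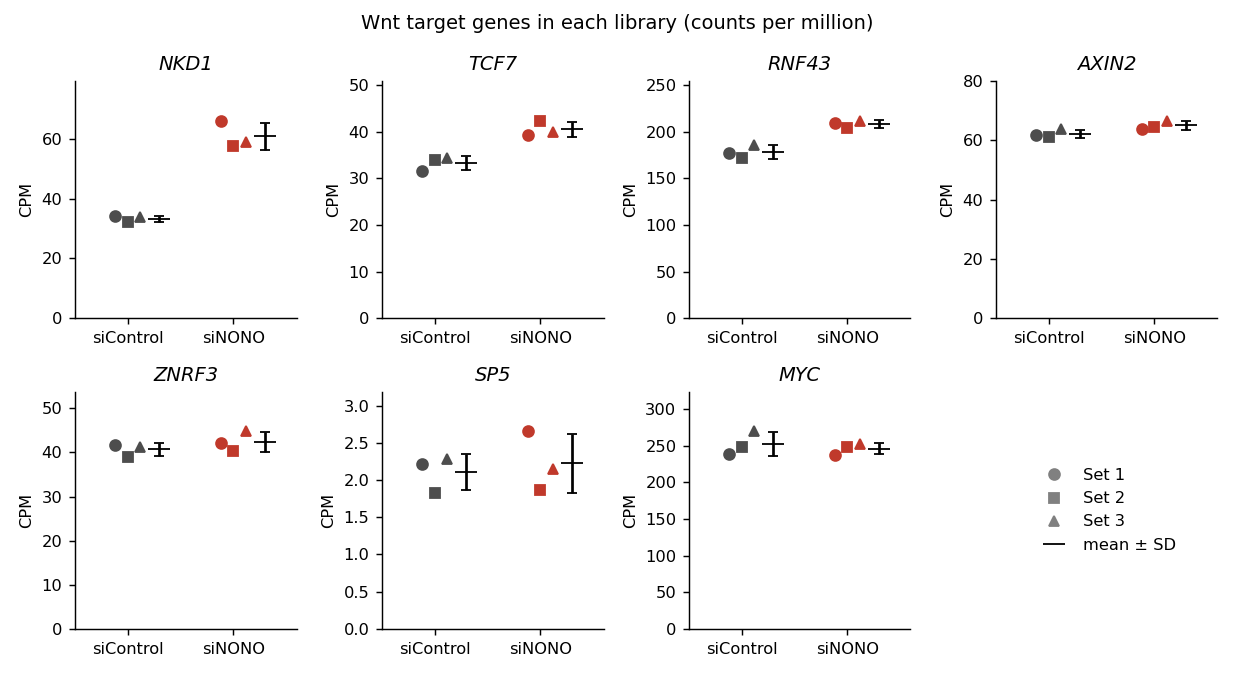
CPM (vertical axes, each from 0) of the 7 tested target genes in siControl (grey) and siNONO (red), with 1 symbol shape per Set and bars for the mean and SD of 3 libraries. NKD1 shows the widest gap, from 32.1 to 34.02 CPM in siControl and from 57.6 to 66.1 CPM in siNONO, while MYC, ZNRF3 and SP5 overlap between the groups.

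Among the feedback brakes of the panel, NKD1 changed most. It encodes a Dishevelled-binding antagonist of Wnt signalling and lies on chromosome 16 of GRCh37 from 50582307 to 50683160, plus strand. NKD1 was at 34.02, 32.1 and 33.7 CPM in siControl Sets 1, 2 and 3 and at 66.1, 57.6 and 58.9 CPM in siNONO. The groups were far apart, and the lowest siNONO library exceeded the highest siControl library by much more than the spread within either group. The level was 1.83-fold higher in siNONO (log2 fold change 0.87, standard error 0.0471, adjusted p = 2.07e-08, edgeR). It rose by 0.96, 0.84 and 0.80 on the log2 scale within Sets 1, 2 and 3. Of all genes tested, 2.51% had a log2 fold change as high or higher. Its paralog NKD2, outside the rule for named genes and given for comparison, had a log2 fold change of 0.13 and was not called (adjusted p = 0.202, edgeR), and NKD1 made up 19.4% to 23.9% of the summed TPM of the pair in siControl and 30.6% to 34.6% in siNONO.

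RNF43 and ZNRF3 are membrane ubiquitin ligases that remove Frizzled receptors from the cell surface. RNF43, on chromosome 17 of GRCh37 from 56431037 to 56494956, minus strand, was at 177, 172 and 186 CPM in siControl Sets 1, 2 and 3 and at 210, 204 and 212 CPM in siNONO. The groups did not overlap, though the shift was modest, 1.17-fold (log2 fold change 0.23, standard error 0.0307, adjusted p = 5.56e-05, edgeR). ZNRF3, on chromosome 22 from 29279560 to 29453476, plus strand, was at 41.8, 39.0 and 41.3 CPM in siControl and at 42.2, 40.2 and 44.8 CPM in siNONO. Its groups overlapped, and the log2 fold change of 0.06 had a 95% interval from -0.04 to 0.16 (adjusted p = 0.348, edgeR). Its sign turned on log2(TPM + 1), to -0.15, where it was not called either (adjusted p = 0.115, limma). RNF43 carried 84.3% to 85.0% of the summed TPM of the pair in siControl and 85.9% to 88.0% in siNONO. ENSG00000285897, a protein-coding annotation, shares 4326 exonic bases with RNF43 on the same strand. It held 17.2, 78.6 and 39.8 estimated counts in siControl Sets 1, 2 and 3 and 81.9, 48.6 and 79.5 in siNONO, and RNF43 held 4081 or more per library. How the shared reads were divided between these genes was not tested. TSPOAP1-AS1, on the opposite strand, shares 345 exonic bases and was at 84.3, 94.8 and 80.3 estimated counts in siControl Sets 1, 2 and 3 and at 165.0, 178.5 and 152.7 in siNONO, higher in every siNONO library as RNF43 was. Whether its reads entered the RNF43 count was not tested. The RNF43 difference on log2(TPM + 1) was 0.12 and was not called (adjusted p = 0.212, limma).

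AXIN2, the scaffold of the destruction complex and a widely used readout of β-catenin activity, lies on chromosome 17 of GRCh37 from 63524681 to 63557766, minus strand. It was at 61.9, 61.0 and 63.8 CPM in siControl Sets 1, 2 and 3 and at 63.9, 64.5 and 66.7 CPM in siNONO. All 3 siNONO libraries stood above all 3 siControl libraries by a narrow margin. Such separation held for 4 of the 7 targets, all 4 higher in siNONO. Over all genes tested, 23.9% were separated with siNONO above and 24% with siNONO below, or 47.8% in either direction. AXIN2 differed by 0.06 on the log2 scale (95% interval from -0.02 to 0.15, standard error 0.0382), which did not pass the test (adjusted p = 0.203, edgeR). The upper end of this interval lay below the log2 fold change of RNF43. Its sign turned on log2(TPM + 1), to -0.06, and it was again not called (adjusted p = 0.438, limma). AXIN1, its paralog, given for comparison and outside the rule for named genes, had a log2 fold change of 0.17 (adjusted p = 0.0516, edgeR).

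Of the transcription factors in the panel, TCF7 changed. TCF7, a TCF/LEF factor that is itself a β-catenin target, lies on chromosome 5 of GRCh37 from 133450372 to 133487556, plus strand. It was at 31.6, 34 and 34.5 CPM in siControl Sets 1, 2 and 3 and at 39.4, 42.4 and 39.9 CPM in siNONO. The groups did not overlap, and TCF7 was 1.22-fold higher (log2 fold change 0.28, standard error 0.0488, adjusted p = 0.000388, edgeR). On log2(TPM + 1) the difference was 0.25 and was not called (adjusted p = 0.146, limma). There, the siNONO library of Set 2 stood out at 28.9 TPM against 21.7 and 22.5 TPM, and RSEM gave it a mean TCF7 transcript length of 2110 bases against 2519 to 2637 bases in the other 5 libraries. TCF7 shares 210 exonic bases with SKP1 on the opposite strand, which was far more abundant, at 481, 470 and 447 TPM in siControl and at 454, 449 and 434 TPM in siNONO. Before scaling to library size, the SKP1 estimated counts were 6103, 5146 and 3897 in siControl Sets 1, 2 and 3 and 5239, 5229 and 4940 in siNONO. The library kit keeps strand, but the strand setting of the counting is not given in the sources used here, and whether SKP1 reads entered the TCF7 count was not tested.

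MYC, the growth-promoting transcription factor, on chromosome 8 of GRCh37 from 128747680 to 128755197, was at 239, 249 and 270 CPM in siControl Sets 1, 2 and 3 and at 237, 248 and 253 CPM in siNONO. Values within Sets 1 and 2 were nearly equal, and those of Set 3 were lower in siNONO by 0.09 on the log2 scale. MYC differed by -0.03 on the log2 scale, with a 95% interval from -0.10 to 0.03 (standard error 0.0313), and did not pass the test (adjusted p = 0.401, edgeR). On log2(TPM + 1) MYC was at -0.11 and was not called (adjusted p = 0.234, limma). Without siControl Set 3 it was at -0.0015 (adjusted p = 0.97, edgeR). SP5, a zinc-finger factor of the Sp family, on chromosome 2 of GRCh37 from 171571847 to 171574588, was at 2.22, 1.83 and 2.28 CPM in siControl and at 2.66, 1.87 and 2.15 CPM in siNONO. The groups overlapped, and the log2 fold change of 0.08 had a 95% interval from -0.34 to 0.50 (adjusted p = 0.772, edgeR). SP5 rested on 50 to 76 counts per library, so a change as large as that of TCF7 or RNF43 was not detectable for it at this depth.

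**Figure D2:**
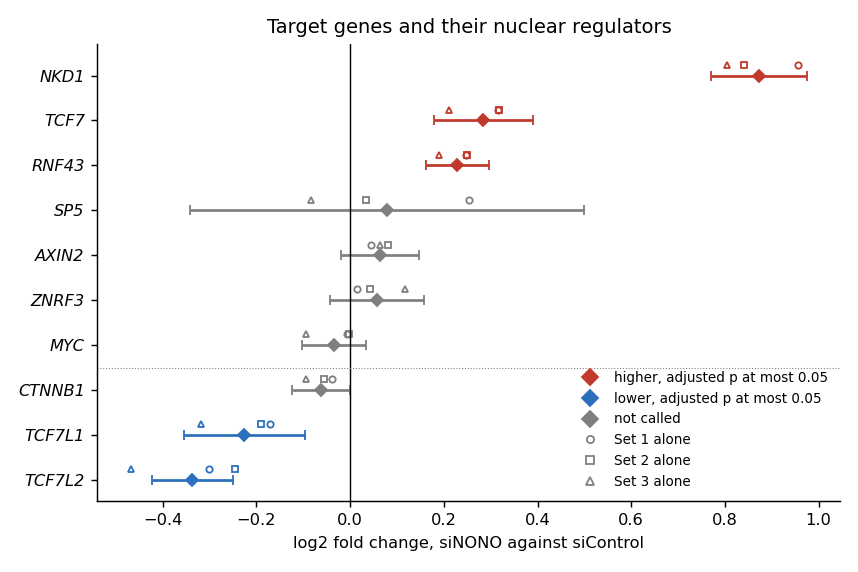
Log2 fold change, siNONO against siControl (horizontal axis), for the 7 tested target genes above the dotted line and CTNNB1, TCF7L1 and TCF7L2 below it. Diamonds are the edgeR estimate and bars a 95% interval derived from its test statistic. Small open symbols are the Sets taken singly, and colour marks the call at an adjusted p of at most 0.05. NKD1 lies at 0.87, TCF7 and RNF43 at 0.28 and 0.23, and TCF7L2 at -0.34.

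TCF7L1 and TCF7L2, the other TCF factors, were lower in siNONO, and CTNNB1 did not pass the test. CTNNB1 was at 400, 401 and 420 CPM in siControl and at 389, 386 and 394 CPM in siNONO, a log2 fold change of -0.06 that did not pass the test (adjusted p = 0.0926, edgeR). On log2(TPM + 1) CTNNB1 was at -0.17 and was not called either (adjusted p = 0.11, limma). TCF7L2, the main TCF factor of intestinal epithelium, was at 252, 246 and 262 CPM in siControl and at 205, 207 and 190 CPM in siNONO, without overlap. It fell by 0.34 on the log2 scale (standard error 0.0397, adjusted p = 1.8e-05, edgeR). TCF7L1, a factor that often acts as a repressor, fell by 0.23 (standard error 0.0589, adjusted p = 0.00708, edgeR). That call was lost with DESeq2, at a log2 fold change of -0.23 (adjusted p = 0.107). With limma it was lost on log2(TPM + 1) and log2(TPM + 0.1), at -0.27 and -0.29 (adjusted p = 0.064 and 0.0908). The TCF7L2 call was lost on log2(TPM + 0.1) alone of the alternatives run, at a log2 difference of -0.36 (adjusted p = 0.0765, limma). Per length, TCF7L2 was the bulk of the family, with 80.6% to 82.6% of the summed TPM of TCF7, LEF1, TCF7L1 and TCF7L2 in siControl and 74.3% to 77.8% in siNONO. TCF7 took 10.6% to 12.3% in siControl and 15.1% to 19.1% in siNONO, and these ranges did not overlap. The highest of them was the Set 2 library with the shorter TCF7 length.

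**Figure D3:**
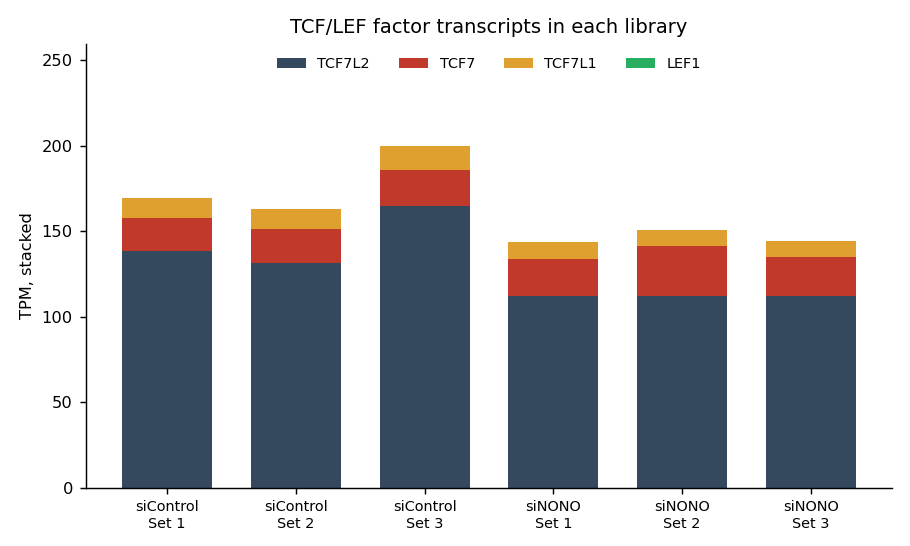
TPM of the TCF/LEF factors stacked for each library (vertical axis, from 0), 3 siControl libraries on the left and 3 siNONO libraries on the right. TCF7L2 forms most of each bar, TCF7 is a larger part of the siNONO bars, and LEF1 is too low to be seen.

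Of the 16 genes listed for the nuclear complex, 15 were tested, and in siNONO 10 were lower, 2 were higher and 3 did not pass. The 80.0% called compares with 46.6% over all genes, and the median log2 fold change was -0.22. SMARCA4, the ATPase of the BAF chromatin remodeller, fell by 0.345 on the log2 scale (adjusted p = 1.72e-06, edgeR). PYGO2, which links β-catenin to chromatin through BCL9, fell by 0.33 (adjusted p = 0.000181, edgeR), and the corepressor relative TLE5, the most abundant gene of the list per length, by 0.20 (adjusted p = 0.000307, edgeR). With limma on log2(TPM + 1), 6 genes of this list were called, all lower, and on log2(TPM + 0.1) 2 were, without TLE5 (adjusted p = 0.0566). Over all 17000 genes tested, limma called 4206 on log2(TPM + 1), 29.8% of them higher. On log2(TPM + 0.1) it called 3083, 29.6% of them higher.

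**Figure D4:**
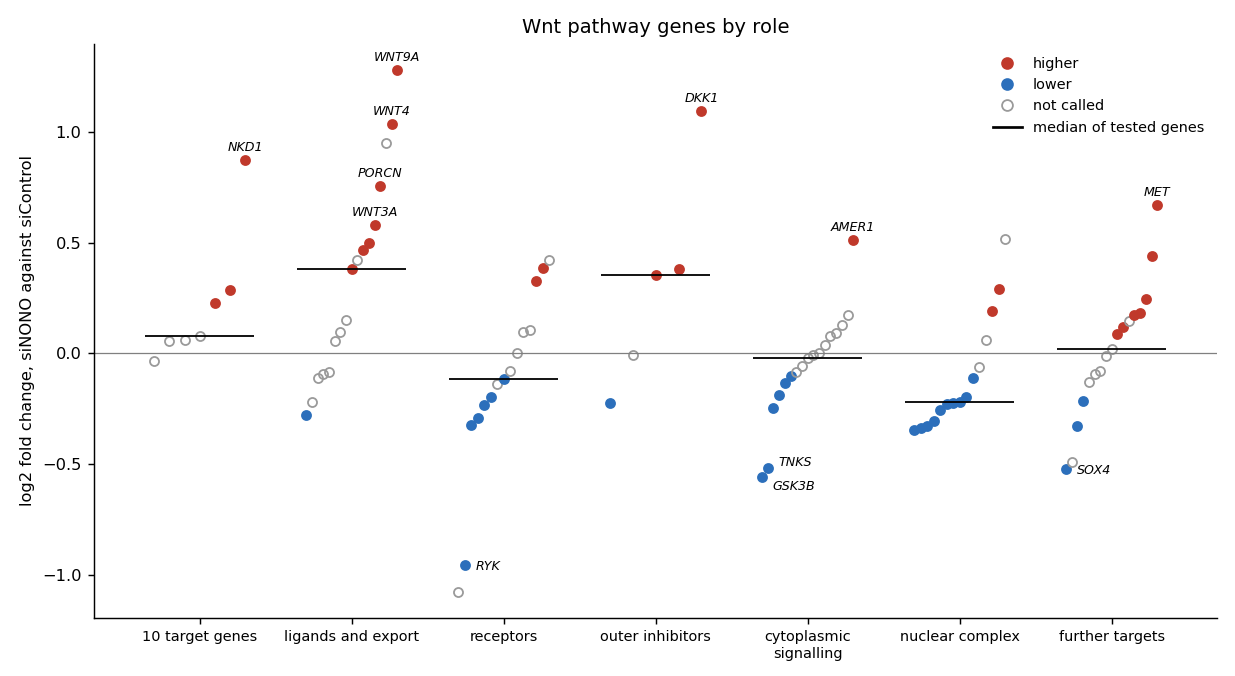
Log2 fold change, siNONO against siControl (vertical axis), of every tested Wnt pathway gene grouped by role, with filled red for higher, filled blue for lower and open grey for genes that did not pass an adjusted p of 0.05. Black lines are list medians, which lie at 0.38 for ligands and their export and at -0.22 for the nuclear complex, and called genes past 0.5 in either direction carry their names.

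Ligands and the proteins that export them were measured in 25 genes, of which 17 were tested. In siNONO, 7 were higher, 1 was lower and 9 did not pass, with a median log2 fold change of 0.38. The 47.1% called was close to the 46.6% called over all genes tested. WNT9A was at 5.04, 5.88 and 5.29 CPM in siControl and at 11.7, 14.4 and 13.3 CPM in siNONO. It rose 2.42-fold (log2 fold change 1.28, standard error 0.0868, adjusted p = 1.38e-07, edgeR), the highest value of any gene of the pathway lists that was tested. PORCN, the acyltransferase that lipidates WNT proteins, rose by 0.75 on the log2 scale (adjusted p = 1.01e-05, edgeR), and WLS, their transport receptor, by 0.38 (adjusted p = 9.47e-06, edgeR). WNT3A, a canonical ligand, rose by 0.58 (adjusted p = 0.00206, edgeR). WNT16, the most abundant ligand per length at 19.2 to 25.9 TPM over the libraries, fell by 0.28 (adjusted p = 0.000766, edgeR). With limma on log2(TPM + 1), 4206 of all 17000 genes tested were called, and of this list 3 were, all higher. WLS, WNT3A and WNT16 were not among them, at log2 differences of 0.25, 0.36 and -0.25 (adjusted p = 0.0576, 0.0592 and 0.0869, limma).

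Receptors moved in both directions. Of 17 listed, 15 were tested, 2 were higher, 6 were lower and 7 did not pass, or 53.3% called against 46.6% over all genes tested. RYK, a receptor of the tyrosine kinase-like class that binds WNT proteins, was at 80.7, 79.5 and 73.1 CPM in siControl and at 42.4, 39.9 and 38.2 CPM in siNONO. It fell by 0.95 on the log2 scale (standard error 0.0407, adjusted p = 2.55e-09, edgeR), without overlap between the groups. Of the LRP co-receptors, LRP6 rose by 0.39 (adjusted p = 4.7e-06, edgeR) and LRP5 fell by 0.11 (adjusted p = 0.0159, edgeR). The LRP5 call was lost under 7 alternatives. Among them were log2(TPM + 1) (adjusted p = 0.0514, limma), the fit without the Set block (adjusted p = 0.146, edgeR) and DESeq2 (adjusted p = 0.0862). In edgeR it was also lost without siControl Set 1, siControl Set 3 or siNONO Set 1 (adjusted p = 0.119, 0.0512 and 0.112). FZD5 rose by 0.32 (adjusted p = 0.000234, edgeR), while FZD6 (41.4 to 47.0 TPM over the 6 libraries) had a log2 fold change of 0.00 (adjusted p = 0.958, edgeR). On log2(TPM + 1) with limma, LRP6 was at 0.13 and FZD5 at 0.20, and neither was called (adjusted p = 0.446 and 0.0644). Among the LGR receptors, LGR4 made up 95.5% or more of the summed TPM of LGR4, LGR5 and LGR6 in every library, and it fell by 0.20 on the log2 scale (adjusted p = 0.00938, edgeR), with overlapping groups. LGR4 lies outside the rule, is given as the paralog of LGR5, and was not followed singly through the alternatives. Without the Set block, or with DESeq2, 5 receptors were called in place of 8, with 3 lower in place of 6. Calls over all 17000 genes tested fell as well, from 7924 to 6164 without the block and to 5227 with DESeq2.

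Of 15 extracellular and membrane inhibitors, 5 were tested, and in siNONO 3 were higher and 1 was lower, or 80.0% of these few genes against 46.6% over all genes tested. DKK1, a secreted inhibitor that binds LRP5 and LRP6 and is itself a known target of the pathway, was at 53.5, 58.7 and 51.3 CPM in siControl and at 120.2, 116.8 and 111.6 CPM in siNONO. It rose 2.13-fold (log2 fold change 1.09, standard error 0.0413, adjusted p = 8.24e-10, edgeR) and by 1.17, 0.99 and 1.12 in Sets 1, 2 and 3. KREMEN1 and KREMEN2, the DKK receptors, rose by 0.38 and 0.35 (adjusted p = 1.6e-05 and 0.00118, edgeR), with overlapping groups for KREMEN2. NOTUM, a secreted esterase that inactivates WNT proteins and another target of the pathway, fell by 0.22 (adjusted p = 0.0124, edgeR). On log2(TPM + 1) the KREMEN1 and NOTUM calls were lost (adjusted p = 0.0562 and 0.0528, limma), and on log2(TPM + 0.1) that of KREMEN2 as well (adjusted p = 0.0527, limma). The NOTUM call was also lost with DESeq2 (adjusted p = 0.121) and, in edgeR, without siControl Set 3 or siNONO Set 3 (adjusted p = 0.0877 and 0.0769).

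All 17 genes of cytoplasmic signalling and the destruction complex were tested, of which 1 was higher, 6 were lower and 10 did not pass, a share of 41.2% called against 46.6% over all genes tested. With limma on either TPM scale, 1 was higher and 3 were lower. Over all 17000 genes tested, limma called 4206 on log2(TPM + 1) and 3083 on log2(TPM + 0.1). GSK3B, the kinase that marks β-catenin for degradation, was at 129.5, 130.9 and 126.0 CPM in siControl and at 90.95, 90.53 and 81.4 CPM in siNONO. It fell by 0.56 on the log2 scale (standard error 0.0360, adjusted p = 9.36e-08, edgeR). TNKS, a tankyrase that directs AXIN proteins to degradation, fell by 0.52 (adjusted p = 1.16e-07, edgeR), and AMER1, a membrane anchor of the complex, rose by 0.51 (adjusted p = 3.5e-05, edgeR). The casein kinases CSNK1A1, CSNK1D and CSNK1E, the most abundant of the list per length, had log2 fold changes of -0.02, 0.00 and 0.08 and did not pass. CSNK1E passed with no filter on low counts (0.096, adjusted p = 0.0486, edgeR) and was at -0.11 on log2(TPM + 1) (adjusted p = 0.195, limma).

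A further list held 21 genes also described as Wnt targets, of which 17 were tested. In siNONO, 7 were higher, 3 were lower and 7 did not pass, with a median log2 fold change of 0.02. The share called was 58.8%, against 46.6% over all genes tested. With limma on either TPM scale the split turned, with 2 higher and 4 lower. Over all genes tested, 29.8% of the calls on log2(TPM + 1) and 29.6% of those on log2(TPM + 0.1) were higher. CCND1, which encodes cyclin D1, was at 427, 447 and 446 CPM in siControl and at 592, 594 and 601 CPM in siNONO, and rose by 0.44 on the log2 scale (adjusted p = 9.01e-08, edgeR). MET, the receptor of hepatocyte growth factor, rose by 0.67 (adjusted p = 2.57e-09, edgeR). SOX4 and BMP4, a transcription factor and a secreted growth factor, fell by 0.52 and 0.33 (adjusted p = 1.25e-07 and 3.62e-06, edgeR). CD44, a cell surface receptor for hyaluronan and the most abundant of the list, rose by 0.09 (adjusted p = 0.0225, edgeR), with overlapping groups. That call was lost under 7 alternatives, among them log2(TPM + 1) (adjusted p = 0.179, limma) and the fit without the Set block (adjusted p = 0.181, edgeR). In edgeR it was also lost without siControl Set 1 or Set 2 or siNONO Set 1 or Set 2 (adjusted p = 0.208, 0.12, 0.21 and 0.174). Over the 6 role lists together, 49 of 86 genes tested were called, 22 higher and 27 lower, or 57.0% against 46.6% over all genes tested. On log2(TPM + 1), limma called 23 of these 86 genes, against 4206 of all 17000 genes tested. Of the 15 receptors tested, 2 were called there, both of them lower.

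Each deposited table also gives a mean transcript length per gene, which moves with the mix of isoforms. Of 14129 genes whose length varied, 0 changed between the groups at an adjusted p of at most 0.05 (limma on log2 length), and 1213 had an unadjusted p under 0.05. Among the 7 tested targets, the log2 change in length ran from -0.06 for TCF7 to 0.12 for ZNRF3, and none passed, with adjusted p-values of 0.519 or more (limma). ZNRF3 was at 5893, 5346 and 5131 bases in siControl and at 6391, 5782 and 5665 bases in siNONO. The groups overlapped, but within each Set the siNONO length was the longer (log2 change 0.12, standard error 0.0163, unadjusted p = 0.00498 and adjusted p = 0.519 in limma).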

How the data were processed

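Gene-level tables were made by the authors, who trimmed reads from a stranded polyA library kit, aligned them with STAR and quantified them with RSEM 1.3.1 on GRCh37 with an earlier GENCODE release. The strand setting of the counting is not given in the sources used here. The deposited tables hold estimated counts (expected counts), TPM and FPKM per gene, and the mean transcript length. The authors' TPM values were used for levels and the FPKM values were not used. Estimated counts were rounded and tested with edgeR 4.0.16 in R 4.3.3 (TMM, low-count filter, quasi-likelihood test, Set as block, Benjamini-Hochberg adjustment over 17000 genes, threshold 0.05). For edgeR, standard errors and 95% intervals were derived from the log2 fold change and the statistic of its test. Length was tested with limma 3.58.1. Alternatives were no block, DESeq2 1.42.0, limma on log2(TPM + 1) and log2(TPM + 0.1), other filters and scaling, and leaving out each library. The code was tested on simulated data. Gene symbols, matched for 99.47% of identifiers, and positions came from GENCODE 44 mapped to GRCh37.

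The 10 genes and the pathway lists were chosen with earlier results of these data known. Named besides them were NONO, CTNNB1, TCF7L1 and TCF7L2 and, in each role list, the 3 genes of highest mean TPM and the 3 of largest absolute log2 fold change among called genes whose mean log2 CPM reached 1. The study's fit had a batch term whose levels are not given in the sources used here, and Set was taken as that term. Deviations from the group means correlated between libraries of the same Set at 0.428, 0.257 and 0.509 over the 10814 genes whose mean log2 CPM reached 3, but at 0.155, 0.0252 and 0.197 over 15541 genes with at least 10 counts in every library. Libraries of different Sets ran from -0.444 to 0.159 and from -0.172 to 0.0474, so over the wider set 2 unmatched pairs (0.0474 and 0.0336) exceeded the value of Set 2. Replicates of every group differed by more than sampling noise. A further list of cell type markers is not reported here.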

Additional observations from a re-analysis of the deposited data

How the results depend on the processing

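The count of changed genes, 7924, was 6164 without the replicate block, 5227 with DESeq2, 4206 with limma on log2(TPM + 1) and 3083 on log2(TPM + 0.1). Leaving out 1 library gave 6497 to 7653. Of the 7 tested targets, 3 were called under every alternative except the TPM fits, where 1 was called, with TCF7 and RNF43 below the threshold. The pathway lists gave 23 and 18 calls on the 2 TPM scales against 49, and 40 without the block. On TPM the median of all genes shifted to -0.07 and -0.09. Signs turned for genes that were not called. On the TPM scales AXIN2 was at -0.0647 and -0.0665, ZNRF3 at -0.15 and -0.16, SP5 at -0.0346 and -0.0540, FZD6 at -0.056 and -0.057, CSNK1D at -0.0700 and -0.0705, and CSNK1E at -0.110 and -0.111. Without siControl or siNONO replicate 1, SP5 was at -0.0228 and -0.0256 and FZD6 at -0.0264 and -0.0291, with highest values of 0.16 and 0.0405 when another library was left out. CSNK1A1 was at 0.0025 without siControl replicate 3 (lowest -0.0365), and CSNK1D at -0.0114, -0.0016 and -0.0144 without siControl replicate 3, siNONO replicate 1 and siNONO replicate 3 (highest 0.0375). In length, 1 gene was called without the block against 0, NKD1 ran from -0.0338 to 0.0097, TCF7 from -0.126 to 0.0437 and RNF43 from -0.0047 to 0.0306 when 1 library was left out. The cause was not tested. With the block, leaving out 1 library also removes its Set partner from the comparison. Depth limits SP5, LGR5, ASCL2 and LEF1.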
